A study of Rattus norvegicus with 8 samples.

Results

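Axon guidance ligands and receptors were followed in purified retinal ganglion cells (RGCs) of the rat, which send their axons from the eye to the brain through the optic nerve. The genes were chosen by symbol in the probe annotation: the Eph receptors (Epha, Ephb) and ephrins (Efna, Efnb), semaphorins of classes 3 to 7, plexins (Plxn), the neuropilins Nrp1 and Nrp2, the netrins with their receptors Dcc and Unc5, the Slits, the Robo receptors, and Rtn4 (Nogo) with its receptor Rtn4r. This rule found 62 genes on 103 array spots. Of these, 37 genes had at least 1 spot with a value on all 8 arrays, among 9792 named genes measured that way. The remaining 25 are described separately. The prefix Unc5 also took in Unc50, a Golgi membrane protein, and Unc5cl, which resembles part of the Unc5 receptors; neither is a netrin receptor, and they are kept apart from that family.

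The RNA was from RGCs exposed to chronic ocular hypertension (COH), in which eye pressure stays raised as it does in many glaucomas, and from control RGCs of the normotensive fellow eyes of the same animals. There were 4 control and 4 COH samples, each a pool of animals and each hybridised to its own Agilent rat array with RGC RNA in Cy5 and a commercial universal rat reference RNA in Cy3. Each value is the log2 of RGC signal over reference signal, so that 1 unit is a 2-fold ratio and a value above 0 lies above the reference. Strain, age, how the pressure was raised and for how long, how the cells were purified, and how many animals made up a pool are not stated in those sources that were used here.

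Guidance molecules steer growing axons. Ephrins and membrane semaphorins act on contact, while netrins, Slits and class 3 semaphorins are secreted, and each is read by receptors on the growth cone that pull the cytoskeleton towards or away from the source. In the developing visual system Eph receptors and ephrins order RGC axons on their map in the brain, netrin at the optic disc guides the axons out of the eye, and Slits acting through Robo2 confine them at the optic chiasm. Nogo and its receptor restrain axon regrowth in the adult central nervous system. Several of these genes also act in blood vessels, Robo4 and Plxnd1 among them.

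The arrays carried between 32101 and 42076 values on 45220 spots, and the median standard error of a COH minus control difference was 0.42 log2 units over all 18595 items tested. The array of COH replicate 4 varied most with position (a range of 1.12 log2 units between blocks of spots, against 0.14 to 0.88 on the others). Signal intensities were not used here. Where 3 or more spots of the same array had exactly equal values, this was taken as a stand-in for low signal, and spots free of such shared values on every array are called distinct below. Of the guidance genes, 15 of 37 (40.5%) had a distinct spot, compared with 50.9% of all named genes. Of the 17 measured RGC markers, 4 exceeded the reference on every control array and 2 lay below it on every one, with a median ratio of 0.38. Rbpms, an RNA-binding protein used to mark RGCs, was at 0.07 ± 0.45 and the vesicular glutamate transporter Slc17a6 at 0.23 ± 0.24 (SD, n = 4). Other RGC markers had means below 0, such as Sncg (-0.61 ± 0.33) and Uchl1 (-0.33 ± 0.31). The means of the 17 ran from -1.04 (Ebf1) to 1.78 (Atoh7). Markers of other cells had medians of 0.51 (7 microglial genes), -0.18 (7 of Muller glia), 0.93 (4 of astrocytes), 1.19 (3 of photoreceptors) and 1.45 (2 of endothelium), and their part in the levels below was not tested. The RGC markers' median was above that of Muller glia and below the other 4 on this scale, whose zero is set by the makeup of the reference RNA. In such bulk samples fewer cells of a type and less RNA per cell cannot be told apart.

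In control RGCs, guidance genes lay more often above than below the reference. Of the 37 genes, 18 (48.6%) were above it on all 4 control arrays, compared with 22.3% of all named genes, and 8 (21.6%) were below it on all 4, compared with 45.9%. Their median control ratio was 0.42, and that of all named genes was -0.41. The 18 measured ligands had a median of 0.65 and the 16 measured receptors 0.17, with Unc50, Rtn4 and Rtn4r in neither class. Among the 15 guidance genes with a distinct spot the median was 0.28 and 6 were above on all 4 arrays. For the 22 without one the median was 0.65 and 12 were above. All named genes had medians of -0.42 with and -0.41 without a distinct spot. Since the reference sets the zero and dyes were not swapped, these levels carry no test.

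**Figure D1:**
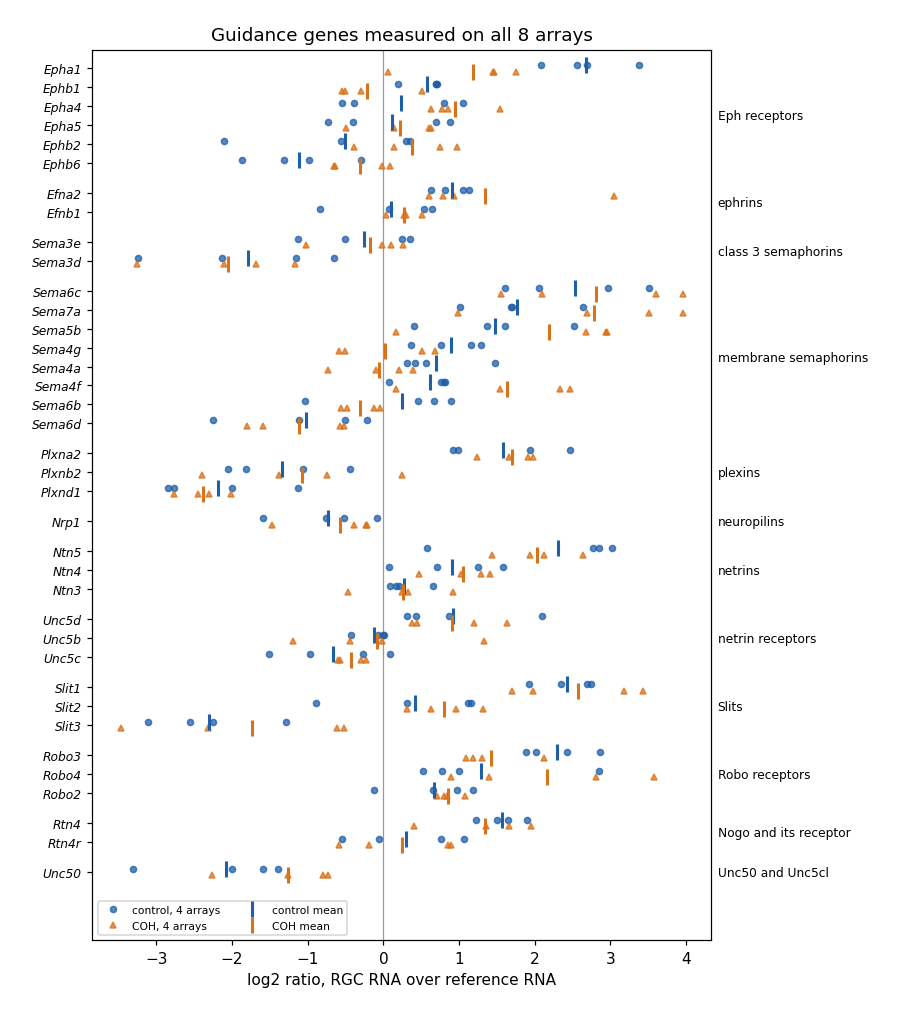
Log2 ratio of RGC over reference RNA (x axis) for the 37 guidance genes with a value on all 8 arrays (y axis, by family). Circles are the 4 control and triangles the 4 COH arrays, and bars mark the group means; of the 37 genes, 18 lay above 0 on all 4 control arrays, and the COH and control values overlapped in every gene but Epha1.

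The main comparison asked whether these genes differ between RGCs of hypertensive and fellow eyes. None of the 37 passed the threshold of 0.05 for limma's p adjusted over all items (smallest adjusted p 0.915), and 0% of the 18595 items passed it, with or without the pair as a block. An unadjusted p under 0.05 was found for 880 items, or 4.73%. Among the guidance genes it was found for 1, Epha1, or 2.7%, which was lower in COH cells, where 2.17% of all items were lower and 2.57% higher at that p. The same direction in 4 of 4 pairs was seen in 5 genes (13.5%), where 13.0% of all items showed it. Of the 37 genes, 4 (10.8%) were lower in 4 of 4 pairs, compared with 4.66% of all items, and 1 (2.7%) was higher in 4 of 4, compared with 8.38%. These splits by direction rest on 5 genes. Groups that did not overlap were seen in 1 gene (2.7%), and in 2.52% of all items. The shares for either direction together and for groups without overlap are near the background. The median difference was 0.15, with 23 genes above 0 and 14 below, and 0.08 over all named genes. Standard errors ran from 0.34 to 0.72, and 7 genes had a 95% interval within 1 log2 unit of 0 (18.9%, against 15.4% of all items), so that a 2-fold difference in either direction lay outside the interval for those 7 genes and for none of the others. Among the cell type markers, 3 had an unadjusted limma p under 0.05, all lower in COH cells. They were Thy1, 1 of 17 RGC markers (-1.28 ± 0.47, SE), Cx3cr1, 1 of 7 of microglia (-2.05 ± 0.44), and Aldh1l1, 1 of 4 of astrocytes (-0.92 ± 0.36). Each had an adjusted limma p of 0.915. The median differences of these lists were 0.06, 0.37 and -0.07. Other members went the other way, such as Tubb3 of RGCs (0.83 ± 0.59), C1qc of microglia (0.83 ± 0.73) and Gja1 of astrocytes (0.18 ± 0.34). The part of these cells in the differences of the guidance genes was not tested.

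**Figure D2:**
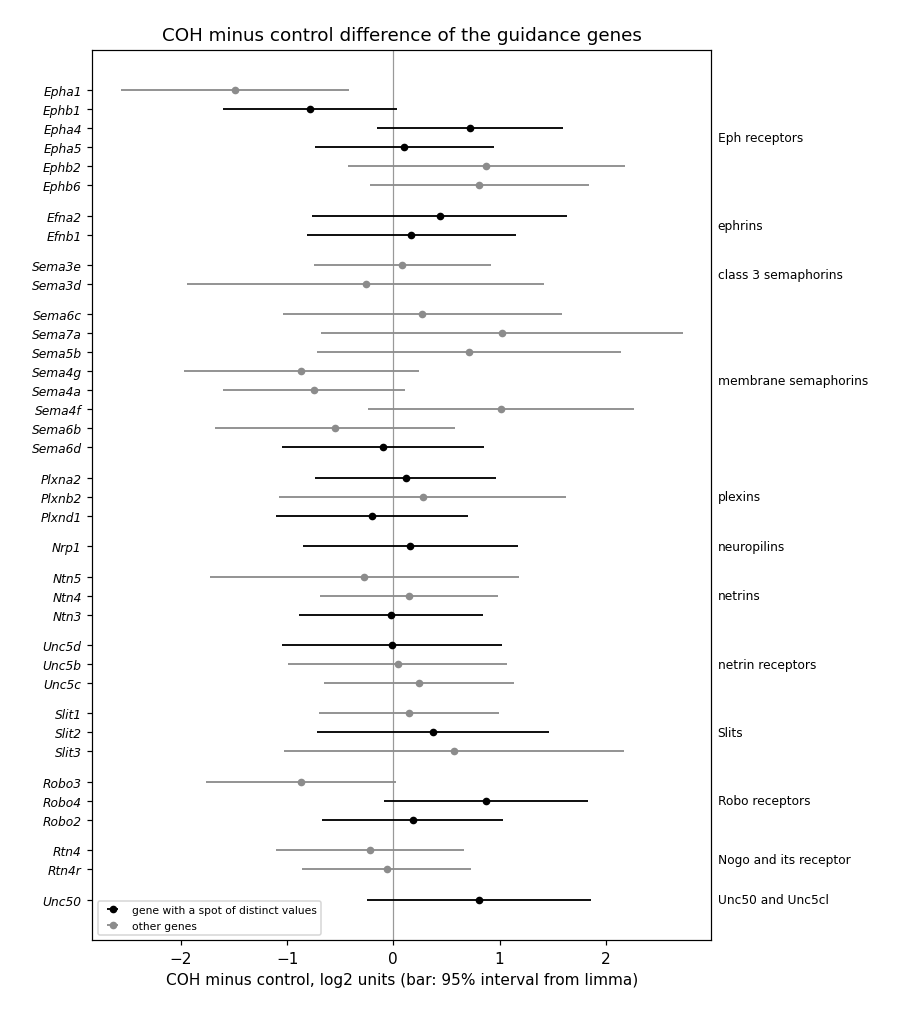
COH minus control difference in log2 units (x axis) with its 95% interval from limma for each of the 37 guidance genes (y axis, by family); black marks genes with a distinct spot and grey the others. The interval of every gene but Epha1 includes 0, and that of Epha1 runs from -2.57 to -0.42.

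Eph receptors are tyrosine kinases that bind ephrins on neighbouring cells. Epha1 had control ratios of 2.56, 3.38, 2.08 and 2.68 in replicates 1 to 4 and COH ratios of 1.45, 1.47, 1.75 and 0.06. Every COH array was below every control array, and the difference was -1.49 ± 0.45 (SE), with an unadjusted limma p of 0.0135 and an adjusted p of 0.915. The spot had a shared value on 8 of 8 arrays. Without pair 4 the difference was -1.12 (limma, unadjusted p = 0.0531). The other 2 spots of Epha1 were each present on 6 arrays, with control means of 0.97 and 1.13. Only the spot at 0.97 had at least 3 complete pairs, and with it included the difference was -0.98 (limma, unadjusted p = 0.137). Both means are well below the 2.68 of the complete spot, so the spots of this gene disagree in level.

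Ephb1, a receptor that in mice turns the uncrossed RGC axons at the optic chiasm, was lower in 4 of 4 pairs. Its control ratios were 0.71, 0.70, 0.70 and 0.20, and its COH ratios -0.50, 0.51, -0.30 and -0.55, as the mean of 2 spots. Only the COH 2 array reached into the control range, and the difference was -0.79 ± 0.34 (SE; limma, unadjusted p = 0.0570, adjusted p = 0.915). The spots differed. On the distinct spot the control values were 0.86, 0.42, -0.31 and 0.21 and the COH values -0.38, -0.99, -0.58 and -2.15, so that the groups did not overlap. There the difference was -1.32 ± 0.37 (limma over the 8278 items with distinct spots, unadjusted p = 0.00969, adjusted p = 0.837; 5.21% of those items had an unadjusted p under 0.05). The other Ephb1 spot, with shared values on 8 of 8 arrays, averaged 0.85 in control and 0.60 in COH cells.

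The remaining Eph receptors, like Ephb1 as the mean of its spots, had intervals that included 0. Epha5, which reads the ephrin-A gradient of the tectum and colliculus, was at 0.88, 0.70, -0.73 and -0.40 in control and 0.60, 0.63, 0.14 and -0.50 in COH cells. The groups covered the same range, with a difference of 0.11 ± 0.36 (SE). The 2 spots of the gene had similar means over all arrays, 0.12 and 0.21, but differed in direction. The distinct spot averaged 0.33 in control and 0.10 in COH cells, and the other -0.10 and 0.33. Ephb2, an ephrin-B receptor of ventral RGCs in the mouse, had control values of 0.35, -2.11, 0.30 and -0.56 and COH values of 0.98, 0.75, 0.14 and -0.39, a difference of 0.88 ± 0.55. Its control replicate 2 was far below all other arrays, and without pair 2 the difference was 0.21. Ephb6, an Eph receptor without kinase activity, was at -0.30, -1.31, -1.86 and -0.99 in control and -0.64, -0.66, -0.01 and 0.08 in COH cells, a difference of 0.81 ± 0.43. With an incomplete second spot included the difference was -0.28. That second spot, present on 7 arrays, averaged 1.19 in control and 0.07 in COH cells, above the reference. Epha4, which binds both ephrin classes, differed by 0.72 ± 0.37. The 6 measured receptors thus had 4 differences above 0 and 2 below.

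Of the ephrin ligands only Efna2 and Efnb1 were measured, both on a distinct spot. Efna2, one of the ephrin-A ligands of the retinal map, had control values of 1.14, 0.82, 0.63 and 1.06 and COH values of 0.93, 3.05, 0.61 and 0.79. Apart from COH 2 the arrays overlapped closely, and the difference of 0.43 ± 0.50 (SE) was -0.16 without pair 2. Efnb1, a transmembrane ligand of EphB receptors, was at 0.64, 0.08, -0.83 and 0.54 in control and 0.30, 0.27, 0.50 and 0.04 in COH cells, a difference of 0.17 ± 0.42.

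Class 3 semaphorins are secreted repellents read by neuropilins and plexins, and 2 of the 7 were measured. Sema3e, a ligand that can bind plexin D1 directly, lay at 0.25, 0.35, -1.13 and -0.51 in control and -0.02, 0.09, -1.02 and 0.26 in COH cells, differing by 0.09 ± 0.35 (SE). Sema3d was below the reference on every array, at -0.65, -1.16, -3.24 and -2.13 in control and -3.25, -1.69, -1.17 and -2.11 in COH cells, a difference of -0.26 ± 0.71. The groups overlapped in both genes. Sema3d had shared values on 8 of 8 arrays and Sema3e on 6. A second Sema3d spot, present on 7 arrays, averaged 0.82, on the other side of the reference. The complete Sema3e spot averaged -0.22 over all arrays, and its other spots, present on 6 and 2 arrays, averaged 0.70 and 0.23.

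Membrane semaphorins were the largest family of ligands, with 8 of 11 genes measured, of which 6 exceeded the reference on each control array. Sema6c, a transmembrane semaphorin, had the largest control ratio of the family, at 2.06, 3.50, 2.97 and 1.60, and COH values of 3.96, 2.10, 3.61 and 1.56. It was above the reference on all 8 arrays and differed by 0.27 ± 0.55 (SE). Sema6d, a ligand of plexin A1, had the smallest, at -0.21, -1.12, -2.26 and -0.51 in control and -0.52, -0.57, -1.80 and -1.60 in COH cells, a difference of -0.10 ± 0.40. Sema6d alone of this family had a distinct spot. Its other spots, present on 2 and 3 arrays, averaged 0.21 and 0.58. Sema7a, a lipid-anchored semaphorin that promotes axon growth through integrins, differed by 1.03 ± 0.72. It was higher in 3 of 4 pairs, and the difference was 1.92 without pair 4 and 0.38 without pair 3. Sema4f and Sema5b were also higher in 3 of 4 pairs (1.01 ± 0.53 and 0.71 ± 0.60). With a pair left out the difference of Sema4f ran from 0.56 (without pair 1) to 1.57 (without pair 3), and that of Sema5b from 0.10 (without pair 3) to 1.35 (without pair 1).

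Some semaphorins lay the other way. Sema4a, a class 4 semaphorin with roles in the immune system and in photoreceptor survival, was at 0.41, 0.56, 0.32 and 1.47 in control and 0.39, -0.10, -0.74 and 0.21 in COH cells. It was lower in 4 of 4 pairs, by only 0.02 in pair 1, with a difference of -0.75 ± 0.36 (SE; limma, unadjusted p = 0.0768, adjusted p = 0.915) on a spot with shared values on 8 of 8 arrays. Sema4g differed by -0.87 ± 0.47 and Sema6b by -0.55 ± 0.48, each lower in 3 of 4 pairs. The 2 spots of Sema4g disagreed, with means over all arrays of -0.48 and 1.40. In all, 4 members of the family had differences above 0 and 4 below.

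Plexins are the signalling receptors for semaphorins, and neuropilins their co-receptors for class 3 ligands. Plxna2 had control values of 1.94, 2.47, 0.92 and 0.98 and COH values of 1.97, 1.91, 1.65 and 1.24, above the reference on every array, and differed by 0.12 ± 0.36 (SE). Its distinct spot averaged 2.82 over all arrays and its other complete spot 0.46. A further Plxna2 spot, present on 7 arrays, averaged -0.18, and with it included the difference was -0.007. Plxnd1, the vascular plexin that reads Sema3e, was below the reference throughout, at -1.12, -2.76, -2.84 and -1.997 in control and -2.30, -2.45, -2.76 and -2.01 in COH cells. The groups overlapped, with a difference of -0.20 ± 0.38. A second Plxnd1 spot, present on 6 arrays and with shared values on each, averaged 0.32. Plxnb2 differed by 0.28 ± 0.57. Nrp1, the receptor subunit that binds Sema3a and also vascular endothelial growth factor, was at -0.08, -0.76, -1.59 and -0.52 in control and -0.23, -1.47, -0.22 and -0.39 in COH cells, below the reference on all 8 arrays and differing by 0.16 ± 0.43. That value rests on 1 distinct spot of 4. Of the others, those on 7 arrays averaged 0.81 and 0.06, and the one on 4 arrays averaged -0.24. The spot at 0.06 averaged 0.25 in control and -0.18 in COH cells.

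The netrins were all above the reference in control cells. Ntn5 had control values of 0.58, 2.84, 2.77 and 3.02 and COH values of 2.63, 2.13, 1.93 and 1.43, differing by -0.27 ± 0.61 (SE). Control replicate 1 was far below the other controls, and without pair 1 the difference was -1.05. Ntn3, measured on a distinct spot, was at 0.20, 0.65, 0.16 and 0.09 in control and 0.91, 0.25, 0.32 and -0.47 in COH cells, a difference of -0.02 ± 0.37. Ntn4, a netrin of basement membranes, differed by 0.15 ± 0.35. For Ntn3 and Ntn4 the 95% intervals, from -0.89 to 0.84 and from -0.69 to 0.99, lay within 1 log2 unit of 0.

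The Unc5 receptors mediate repulsion by netrin. Unc5b was at -0.42, -0.07, 0.01 and -0.0007 in control and -1.19, -0.45, -0.01 and 1.33 in COH cells, so that the COH arrays spread to both sides of the controls, with a difference of 0.04 ± 0.43 (SE). Unc5c had values of 0.09, -0.27, -1.51 and -0.97 in control and -0.23, -0.57, -0.61 and -0.29 in COH cells, a difference of 0.24 ± 0.38. The other Unc5c spot, present on 5 arrays and with shared values on each, averaged 0.13 in control and -1.12 in COH cells. Unc5d, which also binds the adhesion proteins of the FLRT family, had values of 2.10, 0.43, 0.31 and 0.87 in control and 1.20, 1.63, 0.45 and 0.38 in COH cells, a difference of -0.01 ± 0.43. Unc5d was above the reference on all 8 arrays and had the one distinct spot among the 3 receptors. Unc50, the protein that only shares the prefix, was below the reference on all 8 arrays (control -1.40, -1.999, -3.30 and -1.59; COH -0.80, -2.26, -1.26 and -0.74) and differed by 0.81 ± 0.44, higher in 3 of 4 pairs.

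Slits are secreted repellents, and all 3 were measured. Slit1, which with Slit2 shapes the path of RGC axons, was above the reference on every array, at 1.92, 2.74, 2.35 and 2.68 in control and 1.71, 3.18, 1.97 and 3.43 in COH cells. The COH arrays fell on both sides of the controls, the difference was 0.15 ± 0.36 (SE), and its interval, from -0.70 to 0.997, lay within 1 log2 unit of 0. That spot averaged 2.50 over all arrays. A second Slit1 spot, present on 5 arrays and with shared values on each, averaged -0.06. Slit2 had values of 1.12, 1.15, -0.89 and 0.31 in control and 1.31, 0.63, 0.96 and 0.31 in COH cells, a difference of 0.38 ± 0.46. Its 2 complete spots, both distinct, had means over all arrays of 1.13 and 0.09, and the first ranged from -1.57 on control 3 to 2.42 on COH 1 while the second stayed between -0.20 and 0.28. Slit3 was below the reference throughout, at -1.29, -2.56, -3.11 and -2.25 in control and -2.32, -3.47, -0.61 and -0.53 in COH cells. The COH arrays of Slit3 fell into a low and a high pair, and the difference of 0.57 ± 0.67 came with an interval from -1.03 to 2.17 and was -0.07 without pair 3.

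Among the Robo receptors are those that read the Slits. Robo2, the main Slit receptor of RGC axons, was at 1.18, 0.66, -0.13 and 0.98 in control and 1.07, 0.84, 0.79 and 0.71 in COH cells. Its COH values lay inside the control range, with a difference of 0.18 ± 0.36 (SE), and its 2 complete spots had means of 0.91 and 0.61. Robo3, known for its part in midline crossing of commissural axons, was above the reference on all arrays, at 2.42, 2.01, 1.88 and 2.86 in control and 2.13, 1.19, 1.30 and 1.09 in COH cells. COH 1 alone reached the control range. Robo3 was lower in 4 of 4 pairs by 0.87 ± 0.38 (limma, unadjusted p = 0.0554, adjusted p = 0.915), with shared values on 6 of 8 arrays. Without pair 4 it differed by -0.57.

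Robo4, the Robo of endothelial cells, was the one guidance gene higher in 4 of 4 pairs. Its control values on a distinct spot were 2.85, 1.004, 0.53 and 0.78 and its COH values 3.58, 1.39, 0.89 and 2.80. Pair 1 was high in both eyes and pair 4 differed most, so that the groups overlapped while every COH array exceeded its own control. The difference was 0.87 ± 0.41 (SE; limma, unadjusted p = 0.0691, adjusted p = 0.915), and 0.49 without pair 4. Among the items with distinct spots it had an unadjusted limma p of 0.0447 (adjusted p = 0.837). Of 6 endothelial markers 2 were measured, and their part in this difference was not tested. Cdh5, the cadherin of endothelial junctions, was at 2.17 ± 0.20 in control and 1.74 ± 1.11 in COH cells, and Kdr, a receptor for vascular endothelial growth factor, at 0.72 ± 1.42 and 0.87 ± 0.57 (SD, n = 4). The mean of both ran from 0.47 to 2.15 on the control and from 0.80 to 2.07 on the COH arrays.

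**Figure D3:**
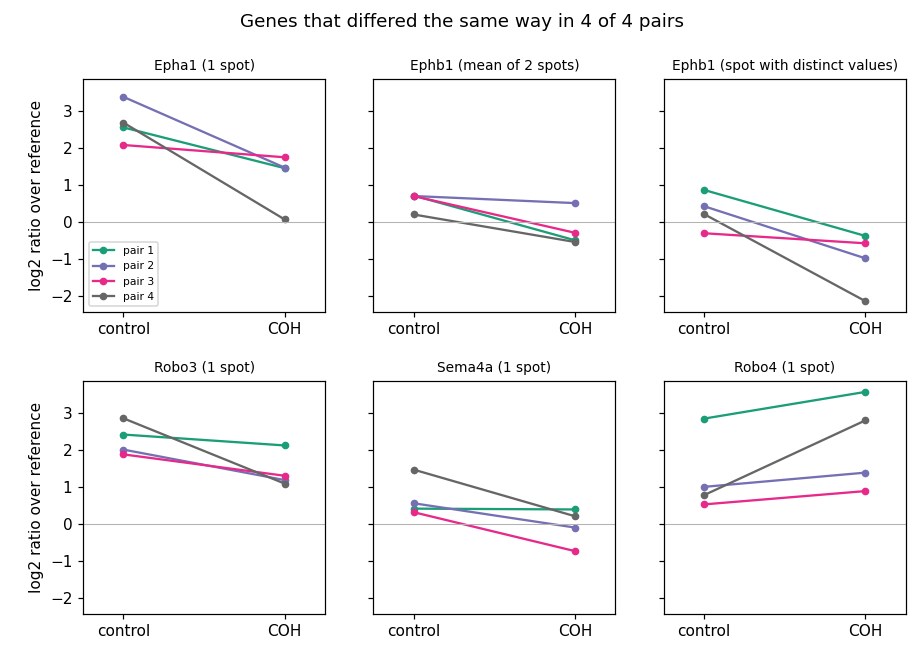
Log2 ratio over reference (y axis) in control and COH cells, with a line for each of the 4 pairs, for the 5 genes whose 4 pairs all ran in one direction; Ephb1 is shown as the mean of its spots and for its distinct spot. Pair 4 has the steepest line for Epha1, Robo3, Sema4a, Robo4 and the distinct spot of Ephb1.

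The Nogo pair did not separate the groups. Rtn4, which encodes the myelin-associated growth inhibitor Nogo-A and also shorter forms, was at 1.22, 1.90, 1.64 and 1.50 in control and 1.36, 1.66, 1.95 and 0.41 in COH cells. It differed by -0.22 ± 0.37 (SE). This spot had shared values on 8 of 8 arrays, and a second Rtn4 spot present on 7 arrays averaged -1.76, on the other side of the reference. Rtn4r, the Nogo receptor, was at -0.55, 0.76, -0.06 and 1.07 in control and -0.20, 0.86, -0.58 and 0.89 in COH cells. Replicates 2 and 4 were the high ones in both groups, and its difference of -0.06 ± 0.34 had an interval from -0.86 to 0.74.

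These counts were set beside the background under each other setting, again at an unadjusted limma p under 0.05. Epha1, Ephb1 and Robo3, all lower in COH cells, made up the 3 genes found with each array centred on its median (4.86% of all items), with quantile normalization (4.94%) and without the replicate block (3.75%). Epha1 was the 1 gene with robust eBayes (4.57%), array weights (4.57%) and the median of the spots (4.74%). Epha1 and Robo4 were found with the position trend removed (4.34%), and Ephb1 and Robo4, 2 of 15 genes (13.3%), with distinct spots (5.21%). Without pair 1 they were Epha1, Ephb6, Sema5b and Sema6b (5.80%), without pair 2 Epha1 (5.36%), without pair 3 Epha1 and Sema4f (4.25%), and without pair 4 Epha4 and Sema7a (3.65%). Epha1 and Sema7a were found without COH 4 (2.91%) and Epha1 and Robo3 without control 3 (3.53%), both fitted without the block. With incomplete spots admitted the 1 gene was Sema3g (5.10%).

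**Figure D4:**
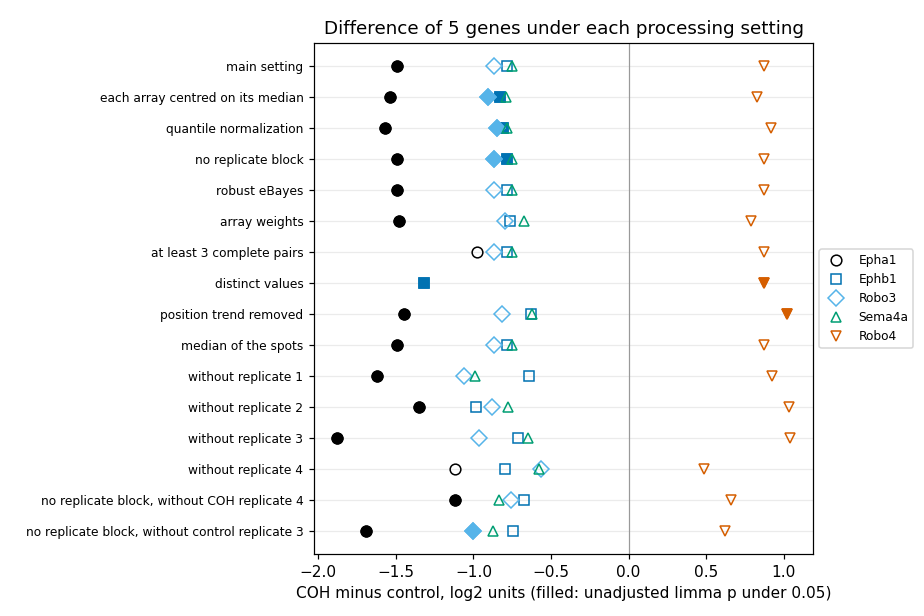
COH minus control difference in log2 units (x axis) of Epha1, Ephb1, Robo3, Sema4a and Robo4 under the main and 15 other processing settings (y axis); filled symbols have an unadjusted limma p under 0.05. Every gene kept its side of 0 in each setting in which it was measured, and Epha1 ran from -1.88 to -0.98.

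The guidance genes shifted with single arrays. Control 3 held the lowest control value in 24 of the 37 genes (64.9%), and in 45.3% of all named genes. The median difference over the guidance genes was 0.36 in pair 3, against -0.15, -0.19 and -0.05 in pairs 1, 2 and 4, and the medians of all named genes were 0.35 in pair 3 and -0.12, -0.003 and 0.10 in the others. Without pair 3 the median difference of the guidance genes was -0.07. Epha5, Nrp1, Robo2, Slit2, Efnb1 and Unc50 all had their lowest control value on control 3.

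Genes that work with these receptors inside the cell or at its surface were counted from a separate list of 60, of which 45 were measured. It holds collapsin response mediators, adhesion co-receptors, regulators of actin and other signalling genes. In control cells 8 of the 45 (17.8%, against 22.3% of named genes) exceeded the reference on every array and 23 (51.1%, against 45.9%) lay below it on every array, with a median of -0.37. None had an unadjusted limma p under 0.05 for COH minus control, where 4.73% of all items had one, and the median difference was 0.10. Rgma, the repulsive ligand of neogenin, had the smallest p (difference -1.17 ± 0.50, SE; limma, unadjusted p = 0.0527). L1cam, an adhesion co-receptor, differed by 0.25 ± 0.34, the collapsin mediator Dpysl2 by 0.05 ± 0.39, and Lingo1, a co-receptor of the Nogo receptor, by 0.30 ± 0.42. These examples were chosen after their values were seen.

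A further 25 guidance genes, on 34 spots, had no spot with a value on all 8 arrays and did not enter the main test. Their spots carried 85 of 136 possible values on control and 84 of 136 on COH arrays, and 88.8% of those values were shared. Several classical guidance genes of the retina are among them. Dcc, the attractive netrin receptor, had values of 0.54, 1.80 and 0.10 on control 2 to 4 and 2.02, -0.65 and -1.06 on COH 1, 2 and 4. Ntn1, the netrin of the optic disc, had values of 1.75 and 2.11 on control 2 and 3 and 0.31, 2.54 and -0.24 on COH 1, 2 and 4. Both genes spread over more than 2 units within the COH arrays.

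Sema3a, the founding class 3 repellent, had 0.08 and -1.08 on control 1 and 2 and -2.67, 0.34 and -1.94 on COH 1, 2 and 4. Efna5, an ephrin-A of the collicular gradient, had 1.30, 1.44 and -1.14 on control 1, 2 and 4 and -1.52, 0.22 and 1.19 on COH 1 to 3. Efnb2 and Epha3 each had a value on 1 control and 1 COH array, namely 1.79 and 0.73 for Efnb2 and -0.79 and -0.43 for Epha3. Sema5a, a semaphorin that inhibits RGC axon growth, had 4 spots, none on more than 7 arrays. On the fullest of these the values were 0.02, 1.47, -2.09 and -0.71 in control and 0.71, 0.12 and -1.28 on COH 1, 3 and 4. Missing values are those that did not meet the authors' quality criteria, so no level is given for these genes. The other members in this state were Efna1, Efna4, Efnb3, Epha2, Epha7, Ephb3, Nrp2, Plxna3, Plxnb3, Robo1, Sema3b, Sema3c, Sema3f, Sema3g, Sema4b, Sema4c, Unc5a and Unc5cl. Plxna1 had no spot named in the probe table used here.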

How the data were processed

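The deposited values are log2 ratios per spot on 2-colour Agilent arrays; per the design text, the authors applied Lowess normalisation, both array-wide and local, and used genes meeting Agilent's quality control. The scanner software was not named in the sources used. That the log has base 2 follows from frequent identical values lying 2 apart. Cy5 for RGC RNA in the labels, and the ratios that the design text names, set the direction. The value table does not state it. Medians per array ran from -0.065 to 0.125.

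Of 45220 spots, 25353 had 1 gene symbol, 48 several and 19819 none in the probe annotation. Symbols were updated by gene identifier through the RefSeq table for GRCr8, which left the guidance genes' symbols as they were. Complete spots (22856, valued on all 8 arrays) were used and averaged per gene. COH minus control was tested with limma 3.58.1 (R 4.3.3; lmFit and eBayes, two-sided). Replicate number entered as a block, and p-values were adjusted by Benjamini-Hochberg across 18595 items. With the block, reported p-values rest on how the COH minus control differences spread between pairs of pools, with variances moderated by eBayes across items. Same-numbered samples were paired because the titles share numbers and, in the design text, ratios were formed within each group of animals. Deviations of same-numbered arrays correlated at 0.02 to 0.09 and those of differently numbered ones at -0.19 to 0.09, which overlaps; the pairing rests on the labels. The fit was tested on simulated data.

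The genes, lists and tests were chosen with earlier results of these data known. Values for all arrays are given for members with an unadjusted p under 0.05, for the highest and lowest control ratio of each family (all members in families of fewer than 3) and for 20 classical retinal guidance genes; Robo4, Sema4a and other members were named after their values were seen. Alternatives covered scaling, the block, the prior, array weights, incomplete spots (each spot centred and used in its complete pairs), distinct spots, position, the mean of spots and each pair left out; settings without a single array were added after seeing the data.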

Additional observations from a re-analysis of the deposited data

Results flagged for a closer look

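A sample far from the other 3 of its group was looked for in both groups of all 37 guidance genes. Of 74 groups, 6 (8.1%) had one, where chance marks about 1 in 20 and 6.9% of the groups of all named genes had one. Efna2 was at 3.05 on COH 2, with the other COH arrays from 0.61 to 0.93. Nrp1 was at -1.47 on the same array, with the others from -0.39 to -0.22. Ntn5 was at 0.58 on control 1 (others 2.77 to 3.02), and Sema4f at 0.08 on that array (others 0.76 to 0.81). Ephb1 was at 0.20 on control 4, against 0.70 to 0.71 on the other controls, as the mean of 2 spots that disagreed. On its distinct spot the controls were 0.86, 0.42, -0.31 and 0.21, and control 4 did not stand apart. Sema5b was at 0.17 on COH 1, with the others from 2.67 to 2.96. Efna2 and Nrp1 were measured on distinct spots. The Sema4f spot had shared values on 7 of 8 arrays, and those of Ntn5 and Sema5b on 2.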

How the results depend on the processing

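No guidance gene and no item passed the adjusted threshold under any of the 15 alternatives (smallest adjusted p of a member 0.778). The count of guidance genes with an unadjusted limma p under 0.05, 1 in the main setting, was 3 with arrays centred on their medians, 3 with quantile normalization and 3 with no replicate block (Epha1, Ephb1 and Robo3 each time; 3.75% of all items without the block). It was 2 of 15 with distinct spots (Ephb1 and Robo4; 5.21% of items), 2 with the position trend removed (Epha1 and Robo4; 4.34%), and 1 to 4 with a pair or an array left out. The block moved no gene across the adjusted threshold. The median control ratio was 0.79 with arrays centred, which raised the median of all named genes from -0.41 to -0.05, and 0.18 to 0.53 with a pair or an array left out. The median difference stayed between -0.09 and 0.27; it was below 0 only without pair 3 (-0.07) and without control 3 (-0.09), settings in which the median of all named genes was -0.02 and -0.01. Of 533 values for the 37 genes under the alternatives, 482 kept the sign of the main value, and 14 genes kept it throughout. The number of arrays limits the precision. Intensities were not used here, so the part of signal over background was not tested.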

Other observations

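With incomplete spots admitted (at least 3 complete pairs), 44 guidance genes had a difference, 7 of them not measured otherwise. Sema3g, a class 3 semaphorin, differed by -1.53 ± 0.58 (SE; limma, unadjusted p = 0.0336, adjusted p = 0.906, over 23339 items, of which 5.10% had an unadjusted p under 0.05). Each spot entered in its complete pairs. Its 2 spots disagreed on COH 1, where they read -0.42 and 2.61, and the higher value did not enter because that spot lacked control 1. The others were Efna1, Efna4, Nrp2, Sema3b, Sema5a and Unc5cl, whose differences ran from -0.44 to 0.85 with unadjusted limma p of 0.143 or more.

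Different spots of a gene gave different levels. Of 7 guidance genes with several complete spots, 4 (Ephb1, Plxna2, Sema4g and Slit2) had means that differed by over 1 unit between spots, up to 2.36 for Plxna2.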
